A study of Mus musculus with 9 samples.

Results

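The Hox genes of the 4 mammalian clusters were examined in auditory nerve samples of adult mice. A gene was included when at least 1 probe set of the array named that Hox gene and no other. This gave 33 of the 18193 genes measured, 9 in the Hoxa cluster, 9 in Hoxb, 7 in Hoxc and 8 in Hoxd, from 48 probe sets. The other Hox genes were not analysed here.

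The study asked whether cells of the adult auditory nerve can form neurospheres, the floating colonies that neural progenitor cells grow in culture. All samples came from CBA/CaJ mice of both sexes aged 8 to 12 weeks. For the neurospheres, nerve cells were first grown in serum as below, and then for 12 days in a medium free of serum containing EGF (20 ng/ml) and FGF (10 ng/ml) as growth factors, together with 2 µg/ml of heparin. For the cultured cells, dissociated nerves were plated in medium with 10% serum and kept 5 to 7 days until the dish was full. The nerve tissue had been dissected from the temporal bone and was not cultured. There were 3 arrays of each group, 9 in all, and each array measured the RNA of 1 sample. The labels number these samples but do not say whether they came from separate animals or dishes, so p-values measure only the spread between these samples. They are mixtures of cell types, in which fewer cells of a type and less RNA per cell cannot be told apart.

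Hox genes encode homeodomain transcription factors, and their order along each cluster follows the order of their domains along the body axis. Those at the 3′ end of a cluster are used in the hindbrain and the neck, those at the 5′ end in the lower trunk, the limbs and the genital region. Cells from anterior levels of the head form without Hox expression, and connective tissue cells of the trunk are known to keep the Hox code of their origin in culture. The clusters are held silent by Polycomb proteins and opened by trithorax proteins, and Hox proteins bind DNA with the TALE cofactors of the Pbx, Meis and Pknox families.

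The bases just before the transcription start of 3 members are shown because the results below turn on them: Hoxa3, which was above background in every group, Hoxa5, which changed on 1 probe set, and Hoxd13, which had the next largest change. Each stretch is 150 bases long and ends at the base before the start. The sequences are RefSeq's for the mouse build GRCm38.p6, read 5′ to 3′ on the strand of the gene, with every CG dinucleotide in capitals.
Hoxa3, chr6:52213068-52213217, minus strand: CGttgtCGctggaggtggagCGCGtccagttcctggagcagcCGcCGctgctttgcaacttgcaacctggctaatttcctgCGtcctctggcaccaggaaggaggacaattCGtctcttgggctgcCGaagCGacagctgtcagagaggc
Hoxa5, chr6:52204588-52204737, minus strand: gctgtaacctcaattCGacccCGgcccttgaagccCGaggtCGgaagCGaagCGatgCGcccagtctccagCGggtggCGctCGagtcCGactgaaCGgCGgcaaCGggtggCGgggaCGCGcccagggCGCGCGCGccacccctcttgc
Hoxd13, chr2:74668075-74668224, plus strand: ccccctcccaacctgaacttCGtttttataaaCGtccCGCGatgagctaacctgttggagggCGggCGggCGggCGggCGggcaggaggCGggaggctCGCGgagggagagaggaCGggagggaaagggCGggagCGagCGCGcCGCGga
They hold 10, 21 and 19 CG dinucleotides in that order. RefSeq gave such a window for 19 of the 33 genes (21 windows). In the 250 bases before the start these windows held a median of 13 CG dinucleotides (2 to 35), against 6 over all 32851 windows of the same length. Their median GC content was 59.2%, against 52.4% over all windows. The letters TATAAA, on either strand, were in 2 of the 21 windows (9.52%), against 12.37% of all windows. This describes the sequence alone, since no measurement of methylation or binding was used. The RefSeq start of Hoxa3 lies between those of Hoxa5 and Hoxa7, and which start was used in these samples was not tested.

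The values are log2 signals of probe sets. To read a level, each array was given a background ceiling, the 95th percentile of 134 genes of odorant, vomeronasal and taste receptors, hair keratin-associated proteins and beta-defensins. The ceiling lay between 5.83 and 6.08 on the 9 arrays. A gene was called above background in a group when all 3 of its arrays were over their own ceiling, and near background when none was. Probe sets differ in how brightly they bind, so a level is read against the ceiling or against the same probe set on other arrays, and not against another gene.

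Most Hox genes were near background in every group. In neurospheres 3 of 33 were above background and 30 near it, in cultured cells also 3 and 30, and in nerve tissue 4 were above, 26 near and 3 were over the ceiling on some arrays only. Near background in all 3 groups were 26 genes. By the same rule 60.9% of all genes were above background in neurospheres, 60.7% in cultured cells and 65.4% in nerve tissue. Of the 134 genes that set the ceiling, 7 were above it in neurospheres (5.22%), 7 in cultured cells (5.22%) and 6 in nerve tissue (4.48%). None of the 8 Hoxd genes and none of the 9 Hoxb genes was above background in any group.

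Hoxa3, Hoxa7 and Hoxc9 were above background in all 3 groups, each by a small margin. Hoxa3, a hindbrain and pharyngeal arch gene, had 6.34, 6.31 and 6.75 (log2) in neurospheres, 6.13, 6.05 and 6.23 in cultured cells, and 6.10, 6.32 and 6.25 in nerve tissue. Its value in neurosphere replicate 3 was the highest Hox value of the series, and its neurosphere arrays did not overlap with those of cultured cells. Hoxa7, a gene of the thoracic axis, had 6.42, 6.38 and 6.42 in neurospheres, 6.67, 6.38 and 6.23 in cultured cells, and 6.49, 6.29 and 6.38 in nerve tissue. Hoxc9, also a thoracic gene, had 6.36, 6.39 and 6.26 in neurospheres, 6.52, 6.15 and 6.36 in cultured cells, and 6.53, 6.13 and 6.25 in nerve tissue. For Hoxa7 and Hoxc9 the 3 groups overlapped. The ceiling decides these calls: with the 99th percentile in place of the 95th, no Hox gene was above background in any group, and with the 90th, 6 were in neurospheres, 6 in cultured cells and 8 in nerve tissue.

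Hoxa9, Hoxb2 and Hoxb3 were over the ceiling on some tissue arrays only. Hoxa9 had 5.81, 5.99 and 6.05 in neurospheres, 6.04, 5.81 and 5.95 in cultured cells, and 6.13, 5.87 and 5.99 in nerve tissue. Hoxb2, a gene of the hindbrain segments, had 5.31, 5.26 and 5.46 in neurospheres, 5.43, 5.25 and 5.16 in cultured cells, and 5.96, 5.51 and 5.29 in nerve tissue, so that a single tissue array stood over its ceiling. Hoxb3 had 5.67, 5.84 and 5.95 in neurospheres, 5.85, 5.72 and 5.88 in cultured cells, and 5.94, 5.82 and 5.91 in nerve tissue. In each of these genes the groups overlapped.

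**Figure D1:**
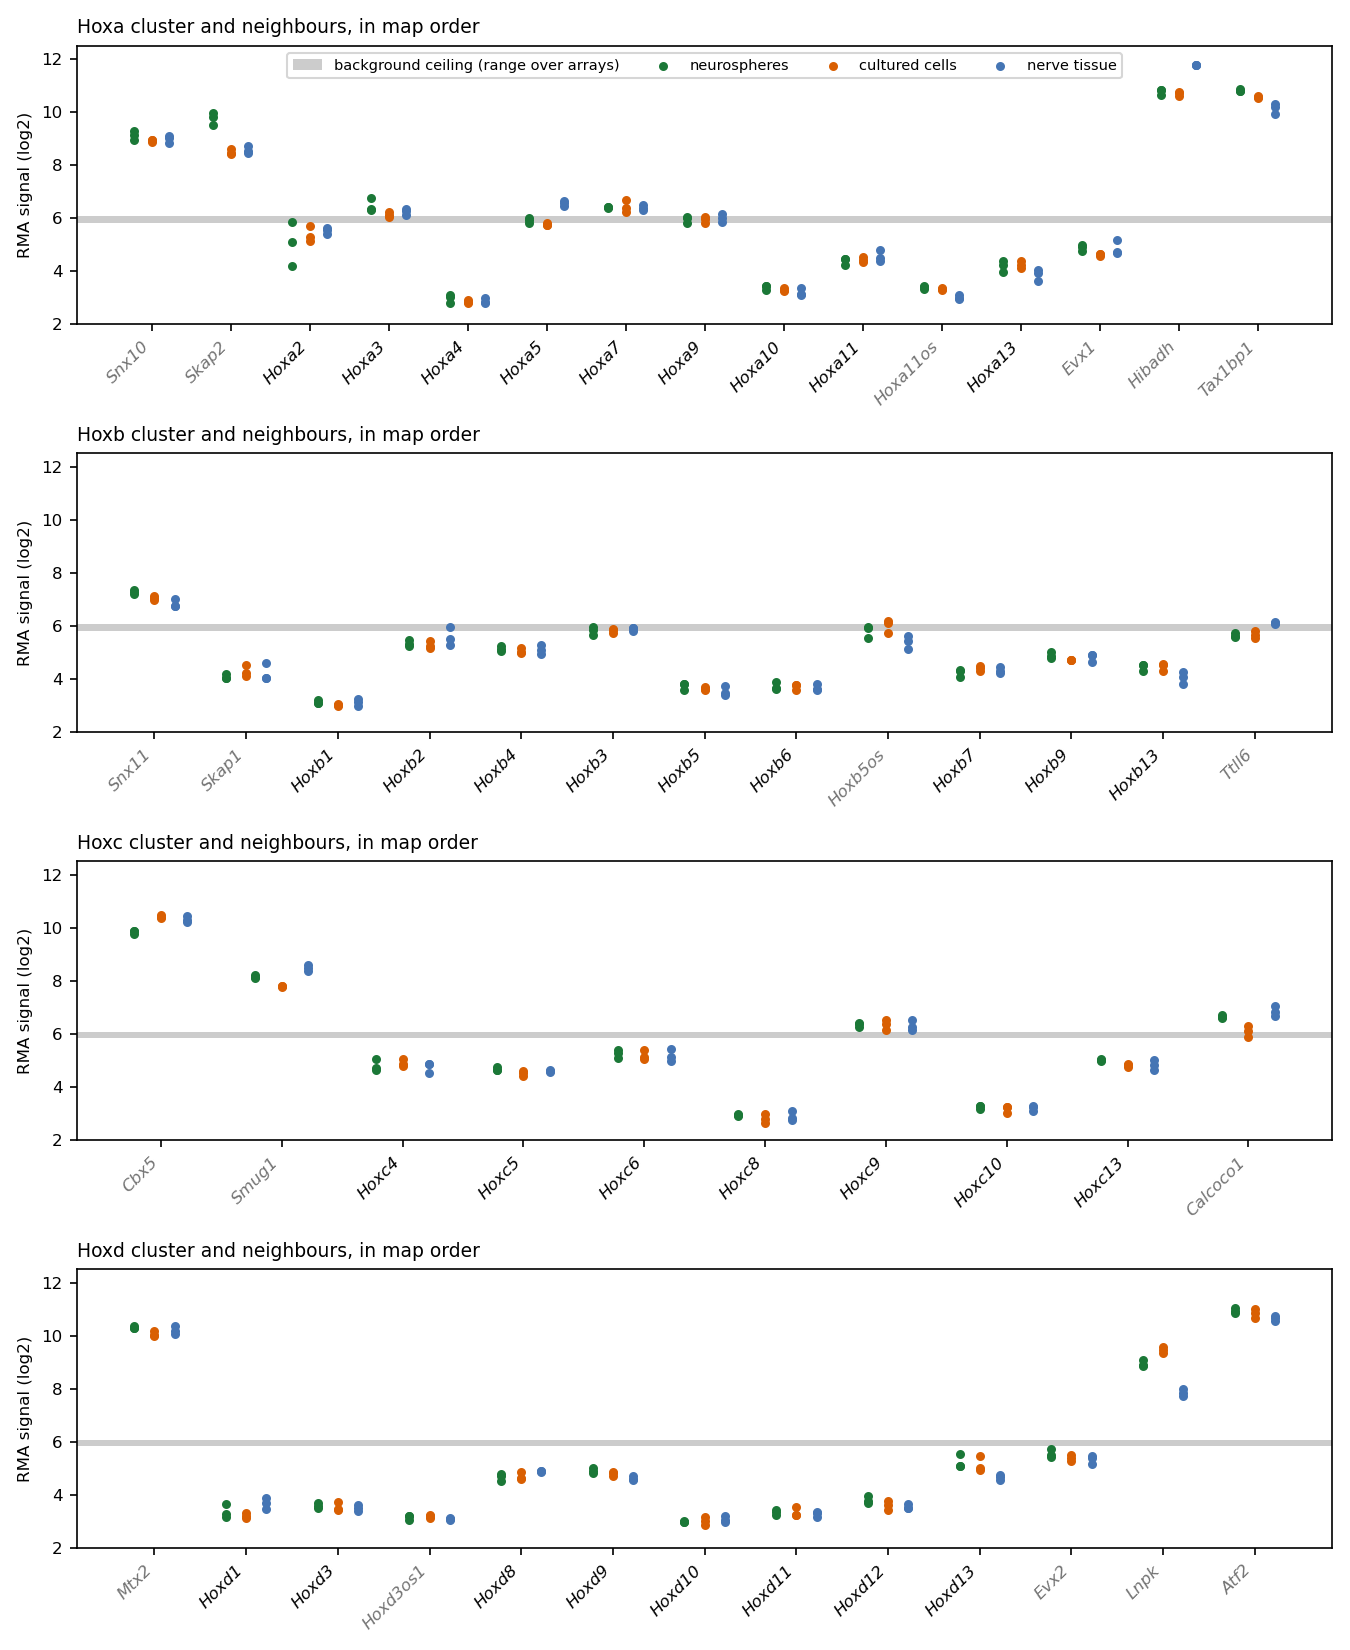
Log2 signal (vertical axis) on each of the 9 arrays, 3 points per group, for the Hox genes (black names) and their measured neighbours (grey names) of the 4 clusters, in map order. The grey band is the background ceiling, 5.83 to 6.08. Most Hox genes lie under it, while 11 of the 13 flanking genes lie over it in neurospheres and in cultured cells, and 12 in nerve tissue. Of all genes, 60.9% were above background in neurospheres, 60.7% in cultured cells and 65.4% in nerve tissue.

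The Hox genes also varied little between arrays. Their values ran between 2.65 and 6.75 (log2), and the range of a gene over the 9 arrays had a median of 0.42 (0.27 to 1.64). That range was under 1 for 32 of the 33 genes. The exception was Hoxa2, the gene that gives the second pharyngeal arch its identity. Hoxa2 had 4.21, 5.09 and 5.84 in neurospheres, 5.29, 5.13 and 5.71 in cultured cells, and 5.61, 5.54 and 5.39 in nerve tissue. Its 3 neurosphere arrays were thus spread over a wider range than the other 6 arrays together, and the difference between neurospheres and nerve tissue was -0.47 (SE 0.34, limma adjusted p = 0.263). Single arrays decided this value: without neurosphere replicate 1, the array at 4.21, it was -0.05 (limma adjusted p = 0.853), and without neurosphere replicate 3 it was -0.87 (limma adjusted p = 0.0156).

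Between groups, a gene was called at a limma adjusted p under 0.05 over all genes with a fold change over 1.5, which is 0.585 on the log2 scale. In neurospheres against nerve tissue 42.7% of all genes were called and 21.0% were called lower, while of the 33 Hox genes 1 was called, Hoxa5, which was lower. In cultured cells against nerve tissue 42.4% of all genes were called and 22.0% were called lower, and again Hoxa5 alone was called among the Hox genes, also lower. Both comparisons share the tissue arrays. In neurospheres against cultured cells 17.9% of all genes and 0 Hox genes were called by limma. At an unadjusted p under 0.05 there were 2 of 33 there, Hoxa3 and Hoxc13, while 35.0% of all genes passed even the adjusted p. The methods' t-test called 0 Hox genes as well. Of the 7144 genes with a mean signal no higher than that of the brightest Hox probe set, 24.4% were called in neurospheres against nerve tissue, 23.7% in cultured cells against nerve tissue and 8.26% in neurospheres against cultured cells. That brightest probe set averaged 6.41, over the ceiling, while most Hox genes were near background. Among the 134 genes that set the ceiling, 0.7% were called in neurospheres against nerve tissue and 2.2% in each of the other comparisons.

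The differences were small in size. The median absolute difference of the Hox genes was 0.09 (log2) in neurospheres against nerve tissue, 0.09 in cultured cells against nerve tissue and 0.09 in neurospheres against cultured cells, beside 0.45, 0.45 and 0.20 over all genes. The 95% interval of the difference lay within 1.5-fold either way for 26 of the 33 genes in neurospheres against nerve tissue, for 27 in cultured cells against nerve tissue and for 31 in neurospheres against cultured cells. It lay within 2-fold for 32, 33 and 32 genes in the same order, and the exception in both cases was Hoxa2. Most of the Hox genes were near background, where the array compresses differences. The intervals therefore describe the signal and may understate a change in RNA. The signed median was 0.06 in neurospheres against nerve tissue (0.05 over all genes) and -0.02 in cultured cells against nerve tissue (-0.01 over all genes). These signs follow the scaling. After centring on the brighter genes they were -0.04 and -0.11, and after quantile normalization 0.19 and 0.14, where the median of all genes was itself 0.13 and 0.11.

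**Figure D2:**
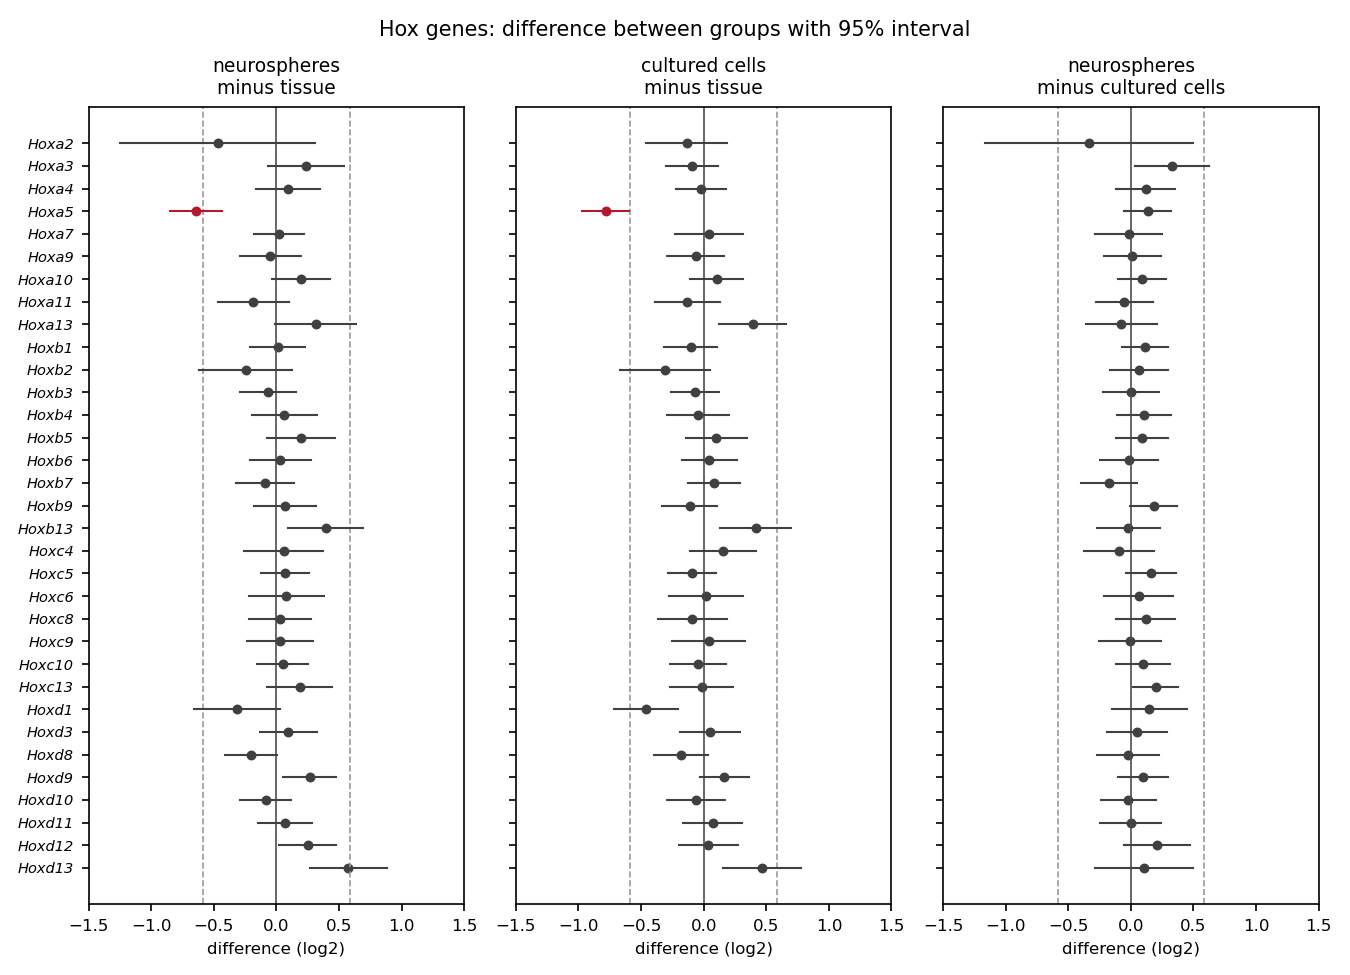
Difference between group means on the log2 scale (horizontal axis) for each of the 33 Hox genes, with its 95% interval from limma, in the 3 comparisons. Dashed lines mark a fold change of 1.5, and red marks the genes called, which are Hoxa5 in both comparisons with nerve tissue.

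Hoxa5, a gene of the neck and upper trunk, was the only Hox gene called. It had 5.91, 5.82 and 5.99 (log2) in neurospheres, 5.74, 5.81 and 5.75 in cultured cells, and 6.63, 6.46 and 6.56 in nerve tissue. All 3 tissue arrays were over their ceiling and over every array of the other groups, none of which passed its ceiling. The difference was -0.65 in neurospheres against nerve tissue (SE 0.091, limma adjusted p = 0.000248) and -0.78 in cultured cells against nerve tissue (SE 0.083, limma adjusted p = 2.02e-05). Between neurospheres and cultured cells it was 0.14 (SE 0.082, limma adjusted p = 0.246).

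These values come from 1 of the 2 Hoxa5 probe sets, whose name carries the suffix with which the maker marks probes that may also bind other transcripts. The other probe set had 3.40, 3.28 and 3.60 in neurospheres, 3.34, 3.21 and 3.27 in cultured cells, and 2.98, 3.37 and 3.35 in nerve tissue, near background on every array. With it the difference was 0.19 in neurospheres against nerve tissue (SE 0.14, limma adjusted p = 0.245) and 0.04 in cultured cells against nerve tissue (SE 0.12, limma adjusted p = 0.776), so its sign was the opposite one. The call was absent from the mean of both probe sets, at -0.23 (limma adjusted p = 0.0567) in neurospheres against nerve tissue and at -0.37 (limma adjusted p = 0.00147) in cultured cells against nerve tissue, where only the fold threshold was missed, and after quantile normalization, at -0.35 and -0.44 in the 2 comparisons, below the fold threshold.

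Other measures also differed between the groups, most of them between nerve tissue and both cultures, as Hoxa5 did. All 10 neuron markers were above background in nerve tissue, beside 4 in neurospheres and 3 in cultured cells, and their mean over an array was 6.34 to 6.47 in neurospheres, 5.89 to 6.13 in cultured cells and 12.2 to 12.4 in nerve tissue. Of 7 Schwann cell markers, 7 were above background in neurospheres, 6 in cultured cells and 7 in nerve tissue. They averaged 7.80 to 8.31 in neurospheres, 7.56 to 8.01 in cultured cells and 11.1 to 11.2 in nerve tissue, and the 11 fibroblast markers averaged 11.9 to 12.0 in neurospheres, 11.8 to 12.1 in cultured cells and 9.83 to 10.2 in nerve tissue. The 8 oligodendrocyte markers averaged 4.97 to 5.12 in neurospheres, 4.85 to 4.92 in cultured cells and 8.88 to 9.02 in nerve tissue, and 7 of the 8 fell in each culture. The 6 astrocyte markers averaged 5.60 to 5.80 in neurospheres, 5.67 to 5.81 in cultured cells and 9.95 to 10.3 in nerve tissue, and 5 fell in neurospheres and 6 in cultured cells. The 11 blood and bone marrow markers averaged 5.63 to 5.91 in neurospheres, 5.24 to 5.33 in cultured cells and 6.90 to 7.67 in nerve tissue. Of these, 6 fell and 1 rose in neurospheres, and 9 fell in cultured cells. Of 7 macrophage markers 4 fell in neurospheres and 4 in cultured cells. Beside these counts, 21.0% of all genes were called lower in neurospheres and 22.0% in cultured cells, against nerve tissue. The 6 bone and cartilage markers averaged 7.39 to 7.87 in neurospheres, 9.13 to 9.52 in cultured cells and 8.49 to 8.76 in nerve tissue, and the 8 muscle markers averaged 5.45 to 5.86 in neurospheres, 7.31 to 7.43 in cultured cells and 6.26 to 6.51 in nerve tissue. For both lists the tissue values thus lay between those of the cultures. Single bone and cartilage markers differed in direction: 1 rose and 3 fell in neurospheres, and 3 rose and 1 fell in cultured cells, against nerve tissue. The signal at the 3′ end of the actin transcript exceeded that at the 5′ end by 0.70 ± 0.15 in neurospheres, 0.36 ± 0.037 in cultured cells and 2.71 ± 0.35 in nerve tissue (log2, SD, n = 3 each), a measure of how complete the RNA was. The same excess for Gapdh averaged 0.41 in neurospheres, 0.19 in cultured cells and 1.98 in nerve tissue. The part of any of these in the Hoxa5 difference, or in any other difference from nerve tissue given here, was not tested.

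At the adjusted p alone, without the fold threshold, 4 Hox genes passed in neurospheres against nerve tissue, where 62.1% of all genes did, 5 in cultured cells against nerve tissue, where 64.0% did, and 0 in neurospheres against cultured cells, where 35.0% did. Of the first 4, Hoxd13, Hoxb13 and Hoxd9 were higher and Hoxa5 lower, and of the 5, Hoxd13, Hoxb13 and Hoxa13 were higher and Hoxa5 and Hoxd1 lower. A limma F test over the 3 groups passed the same 6 named genes of 33, beside 71.5% of all genes. Apart from Hoxa5, all were near background in every group. Which genes passed depended on the scaling. After centring on the brighter genes Hoxb13 no longer passed in either comparison (limma adjusted p = 0.107 in neurospheres and 0.0552 in cultured cells against nerve tissue), nor did Hoxd9 in neurospheres (0.207) or Hoxa13 in cultured cells (0.0622), while Hoxd1 also passed as lower in neurospheres, at -0.41 (0.0432). Hoxa5 and Hoxd13 passed the adjusted p in both comparisons there. After quantile normalization Hoxa3 passed as higher, at 0.53 in neurospheres (limma adjusted p = 0.00840) and 0.26 in cultured cells (0.0323) against nerve tissue. Before it, Hoxa3 differed by 0.24 (0.154) and -0.09 (0.420). With that scaling Hoxa13 also passed in neurospheres (0.0279) and Hoxd9 in cultured cells (0.00403).

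Hoxd13, the gene at the 5′ end of its cluster that patterns the digits, had the largest of these differences after Hoxa5. It had 5.53, 5.09 and 5.09 in neurospheres, 5.46, 5.02 and 4.92 in cultured cells, and 4.67, 4.76 and 4.56 in nerve tissue. Every culture array was over every tissue array. The difference was 0.57 in neurospheres against nerve tissue (SE 0.13, limma adjusted p = 0.00523), just under the fold threshold, and 0.47 in cultured cells against nerve tissue (SE 0.14, limma adjusted p = 0.0136). The size moved with single arrays and with the scaling. It passed the threshold in neurospheres against nerve tissue without the second tissue array (0.62), the second neurosphere array (0.65) or the third (0.65), and in both comparisons after quantile normalization (0.71 and 0.67). It was 0.42 in neurospheres against nerve tissue without neurosphere replicate 1 and 0.31 in cultured cells against nerve tissue without cultured cell replicate 1, and centring on the brighter genes gave 0.48 and 0.39 in the 2 comparisons. Its other probe set gave 0.03 in neurospheres against nerve tissue (limma adjusted p = 0.813) and -0.22 in cultured cells against nerve tissue (limma adjusted p = 0.101).

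The remaining genes of that set had 1 probe set each. Hoxb13, another member of the most posterior paralogue group, had 4.53, 4.29 and 4.53 in neurospheres, 4.31, 4.57 and 4.54 in cultured cells, and 4.27, 4.08 and 3.83 in nerve tissue. Its difference was 0.39 in neurospheres against nerve tissue (SE 0.13, limma adjusted p = 0.0274) and 0.42 in cultured cells against nerve tissue (SE 0.13, limma adjusted p = 0.0160). Hoxa13, of the same paralogue group, had 4.21, 3.95 and 4.37 in neurospheres, 4.38, 4.13 and 4.25 in cultured cells, and 4.03, 3.93 and 3.64 in nerve tissue, and its difference was 0.32 (limma adjusted p = 0.0836) in neurospheres against nerve tissue and 0.39 (limma adjusted p = 0.0159) in cultured cells against nerve tissue. In both genes the culture and tissue values lay within 1 log2 unit of each other. Hoxd9 had 4.88, 4.81 and 5.00 in neurospheres, 4.83, 4.84 and 4.72 in cultured cells, and 4.73, 4.56 and 4.61 in nerve tissue. It differed by 0.26 in neurospheres against nerve tissue (limma adjusted p = 0.0346) and by 0.16 in cultured cells against nerve tissue (limma adjusted p = 0.127). Hoxd1, at the 3′ end of its cluster, had 3.29, 3.66 and 3.18 in neurospheres, 3.33, 3.22 and 3.14 in cultured cells, and 3.88, 3.71 and 3.48 in nerve tissue. It differed by -0.32 in neurospheres against nerve tissue (limma adjusted p = 0.0993) and by -0.46 in cultured cells against nerve tissue (limma adjusted p = 0.00529), and its neurosphere arrays overlapped with those of tissue.

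By place in the cluster, the 7 genes of paralogue groups 1 to 3 had a median difference of -0.07 in neurospheres against nerve tissue, the 12 genes of groups 4 to 8 had 0.04 and the 14 genes of groups 9 to 13 had 0.13. In cultured cells against nerve tissue the same medians were -0.10, -0.0035 and 0.04. Between neurospheres and cultured cells they were 0.06, 0.08 and 0.05. Single genes of these sets ran from -0.47 to 0.237, from -0.645 to 0.194 and from -0.184 to 0.572 in neurospheres against nerve tissue, so the sets overlapped. A trend along the clusters was not tested. By cluster, the medians in neurospheres against nerve tissue were 0.02 for Hoxa, 0.03 for Hoxb, 0.06 for Hoxc and 0.08 for Hoxd, beside 0.05 over all genes. In neurospheres against cultured cells Hoxa3 had the largest positive difference, 0.33 (SE 0.13, limma adjusted p = 0.0814), and Hoxa2 the largest negative one, -0.33 (SE 0.36, limma adjusted p = 0.529). Both moved with single arrays: Hoxa3 was 0.19 without neurosphere replicate 3. Hoxa2 turned to 0.09 without neurosphere replicate 1, and was -0.73 without neurosphere replicate 3 and -0.17 without cultured cell replicate 3.

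**Figure D3:**
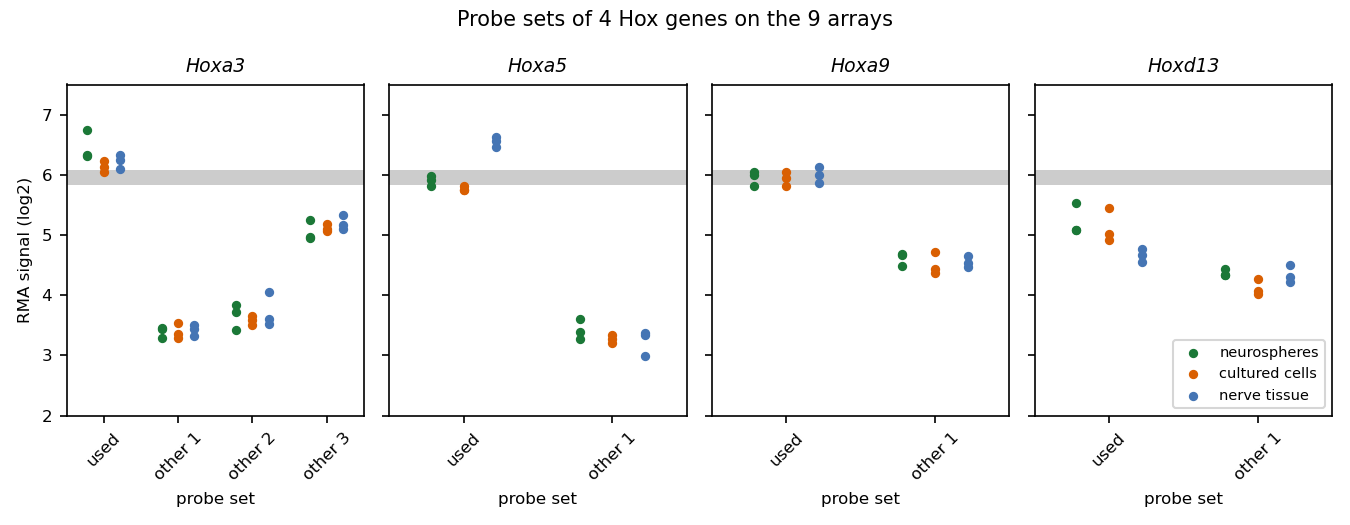
Log2 signal (vertical axis) of every probe set of Hoxa3, Hoxa5, Hoxa9 and Hoxd13 on the 9 arrays, 3 points per group, with the probe set used for the gene at the left and the background ceiling as a grey band. Only the used probe set of Hoxa5 sets tissue apart above the band, and the other probe sets of all 4 genes lie below it.

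Of the 33 genes, 11 had more than 1 probe set, and the text gives the one with the highest mean. The mean over the 9 arrays differed between probe sets of a gene by 0.23 (Hoxa4) to 2.87 (Hoxa3). Hoxa3 was above background by 1 of its 4 probe sets. The other 3 averaged 3.40 at the lowest and stayed under the ceiling on every array.

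Most neighbours of the clusters were above background. Of 13 listed genes that lie within 1 Mb of a cluster, 11 were above background in neurospheres, 11 in cultured cells and 12 in nerve tissue. Over all genes the shares were 60.9%, 60.7% and 65.4% in that order. Between neurospheres and nerve tissue 3 of the 13 rose and 1 fell, 30.8% beside the 42.7% called over all genes. Skap2, an adaptor protein gene beside Hoxa, averaged 9.76 ± 0.22 in neurospheres, 8.48 ± 0.094 in cultured cells and 8.56 ± 0.13 in nerve tissue (SD, n = 3 each), and its difference was 1.20 in neurospheres against nerve tissue (SE 0.13, limma adjusted p = 3.76e-05). Lnpk, which encodes a protein of the endoplasmic reticulum and lies beside Hoxd, differed by 1.08 in neurospheres against nerve tissue and by 1.60 in cultured cells against nerve tissue (limma adjusted p = 2.50e-05 and 5.48e-07). Hibadh, a valine breakdown enzyme gene beside Hoxa, fell by 1.002 in neurospheres and fell by 1.08 in cultured cells against nerve tissue (limma adjusted p = 1.18e-05 and 1.34e-06). Of 5 measured other genes of the clusters, 4 were near background in all groups, among them the homeobox genes Evx1 and Evx2 at the 5′ ends of Hoxa and Hoxd. The exception was the antisense transcript Hoxb5os, with 5.92, 5.54 and 5.96 in neurospheres, 6.19, 5.74 and 6.10 in cultured cells, and 5.42, 5.13 and 5.63 in nerve tissue. Hoxb5os was called higher in cultured cells against nerve tissue, at 0.62 (SE 0.15, limma adjusted p = 0.00513), but fell under the fold threshold, at 0.54, when arrays were centred on the brighter genes. Antisense transcripts overlap other genes of a cluster, and the strand specificity of the probe set was not tested.

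Most TALE cofactors were above background. Of 8 measured, 6 were above background in neurospheres, 5 in cultured cells and 6 in nerve tissue. By the same rule 60.9%, 60.7% and 65.4% of all genes were above it. Of the 8, 2 rose and 1 fell in each comparison with nerve tissue. That is 37.5% called, beside 42.7% of all genes in neurospheres and 42.4% in cultured cells against nerve tissue. Meis1, a Hox cofactor of the limb and the nervous system, had 5.01 to 5.57 in neurospheres, 5.27 to 5.71 in cultured cells and 7.65 to 8.25 in nerve tissue. Its culture arrays were near background and its tissue arrays above it, and it fell by 2.54 in neurospheres (SE 0.19, limma adjusted p = 4.47e-06) and fell by 2.35 in cultured cells (SE 0.17, limma adjusted p = 1.28e-06) against nerve tissue. Pknox2, of the Prep family of cofactors, rose by 0.75 in neurospheres and by 0.87 in cultured cells against nerve tissue (limma adjusted p = 9.46e-05 and 2.05e-05). Meis2 rose by 0.96 in cultured cells (limma adjusted p = 1.14e-05), and Meis3 by 0.59 in neurospheres (limma adjusted p = 0.00106), a call that was absent after centring on the brighter genes (0.50). Between neurospheres and cultured cells Meis2, Meis3, Pbx3 and Pknox1 of the 8 passed limma's adjusted p, beside 35.0% of all genes. Their differences were -0.57, 0.30, -0.42 and 0.44 (limma adjusted p = 0.00403, 0.0271, 0.00423 and 0.00564), and no cofactor reached the fold threshold. After centring on the brighter genes Meis2 just passed it, at -0.585 (limma adjusted p = 0.00404).

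The genes that silence and open the clusters were also above background throughout, 16 of 17 Polycomb genes and all 12 trithorax and other activator genes in every group. Over all genes 60.7% to 65.4% were above it in a group. Of the Polycomb genes 3 rose and 4 fell in neurospheres against nerve tissue, and 3 rose and 3 fell in cultured cells against nerve tissue. These shares, 41.2% and 35.3%, were not above the 42.7% and 42.4% called over all genes. Ezh2, the methyltransferase of the second Polycomb complex in dividing cells, averaged 9.37 ± 0.21 in neurospheres, 10.5 ± 0.12 in cultured cells and 7.90 ± 0.068 in nerve tissue (SD, n = 3 each). It was higher by 1.47 in neurospheres against nerve tissue (limma adjusted p = 6.54e-06) and differed by -1.09 in neurospheres against cultured cells (limma adjusted p = 0.000252). Ezh1, the catalytic subunit that can take the place of Ezh2 in that complex, differed by -0.92 in neurospheres and by -1.70 in cultured cells against nerve tissue (limma adjusted p = 1.62e-05 and 5.74e-08). Cbx7, a reader of the Polycomb mark, fell by 2.55 and fell by 2.12 in the same comparisons (limma adjusted p = 2.44e-08 and 2.64e-08), and Rnf2, a ubiquitin ligase of the first complex, rose by 1.27 and by 1.22 (limma adjusted p = 1.36e-06 and 4.42e-07). Of the activators 2 rose and 2 fell in neurospheres, and 4 rose and 3 fell in cultured cells, against nerve tissue, which is 33.3% and 58.3% called beside 42.7% and 42.4% over all genes. Ash2l, a core subunit of the methyltransferase complexes, rose by 1.76 in neurospheres (limma adjusted p = 3.78e-07), and Rbbp5, of the same core, fell by 1.28 (limma adjusted p = 3.07e-06).

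Of 11 upstream regulators of Hox expression 5 were above background in neurospheres, 5 in cultured cells and 6 in nerve tissue. Over all genes the shares were 60.9%, 60.7% and 65.4% in that order. The Cdx genes, which set Hox expression in the early trunk, were near background in all groups. Egr2, which acts in the hindbrain and in Schwann cells, averaged 10.2 ± 0.080 in neurospheres, 9.82 ± 0.16 in cultured cells and 10.4 ± 0.19 in nerve tissue (SD, n = 3 each). Rarb, a retinoic acid receptor and itself a target of retinoic acid, averaged 10.7 ± 0.13 in neurospheres, 10.7 ± 0.050 in cultured cells and 8.59 ± 0.22 in nerve tissue (SD, n = 3 each) and was higher by 2.10 in neurospheres and by 2.09 in cultured cells than in nerve tissue (limma adjusted p = 1.02e-06 and 1.50e-07).

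Other lists of position genes were read in the same way, and none of their shares was tested against that of all genes. The name of a list is not a measured position, and its genes may also act elsewhere in the body. Of 25 homeobox genes of the Hox-free head, 10 were above background in neurospheres, 11 in cultured cells and 12 in nerve tissue. Over all genes the shares were 60.9%, 60.7% and 65.4% in that order. Of the 25, 7 rose and 7 fell in neurospheres against nerve tissue, 56.0% beside the 42.7% called over all genes. Shox2 averaged 4.87 ± 0.16 in neurospheres, 5.02 ± 0.16 in cultured cells and 11.8 ± 0.021 in nerve tissue (SD, n = 3 each), a difference of -6.89 in neurospheres against nerve tissue (limma adjusted p = 6.27e-10). Otx2, the forebrain and midbrain determinant, fell by 4.68 in the same comparison, and Prrx2 and Lhx6, of cranial mesenchyme, rose by 3.58 and by 3.33. Of 17 otic and periotic patterning genes 4 rose and 7 fell (64.7% called, beside 42.7% over all genes). Among those that fell were Isl1, a gene of sensory neurons, at -5.87, and Gata3, of the developing ear, at -4.89 (limma adjusted p = 2.40e-09 and 4.72e-08). Spry1, Tbx18 and Pou3f4 were among those that rose. They averaged 9.02, 11.9 and 10.9 in neurospheres and 7.33, 10.4 and 9.6 in nerve tissue. Of 18 limb and trunk position genes 6 rose and 2 fell in neurospheres against nerve tissue, 44.4% called beside 42.7% over all genes. Tbx3, a limb and mammary T-box gene, averaged 8.03 ± 0.41 in neurospheres, 5.30 ± 0.17 in cultured cells and 5.92 ± 0.15 in nerve tissue (SD, n = 3 each), and was higher in neurospheres by 2.74 than in cultured cells (SE 0.19, limma adjusted p = 2.01e-05). Meox1, a somite homeobox gene, was higher in neurospheres by 2.13 than in cultured cells (SE 0.27, limma adjusted p = 0.000528). In that comparison 3 of the 18 limb and trunk genes rose and 3 fell, 33.3% called beside 17.9% over all genes. Meox2 and Zic1 went the other way. Meox2 averaged 5.49 in neurospheres and 6.54 in cultured cells, and Zic1 averaged 8.75 and 10.1.

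**Figure D4:**
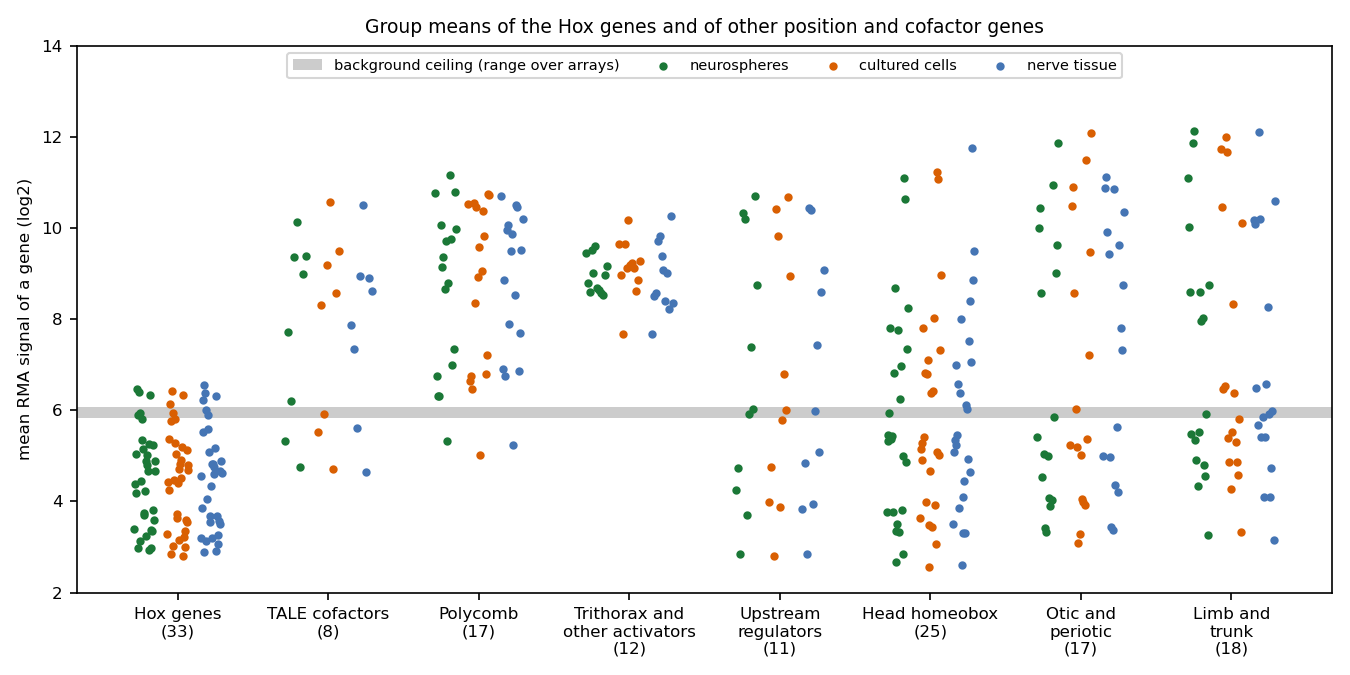
Mean log2 signal of each gene over the 3 arrays of a group (vertical axis), for the Hox genes and 7 lists of cofactors, regulators and other position genes, with the number of genes under each name. The grey band is the background ceiling: 3 or 4 of the 33 Hox genes lie above it in a group, against 16 of 17 Polycomb genes. Above background in a group were also 10 to 12 of 25 head homeobox genes, 8 or 9 of 18 limb and trunk genes and 5 or 6 of 11 upstream regulators. Over all genes the share was 60.7% to 65.4%.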

How the data were processed

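RNA of 3 neurosphere, 3 cultured cell and 3 nerve tissue samples had been hybridised to Affymetrix mouse expression arrays. The table holds log2 signals that the authors made by RMA, per the labels and the study's methods, with Affymetrix Expression Console; its version is not given in the sources used here. RMA normalizes all arrays together and compresses differences near background. Array medians were 6.15 to 6.27.

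Of 45101 probe sets, 34945 named 1 gene. Each of 18193 genes was read from its probe set with the highest mean. Each comparison was fitted on its 6 arrays with limma (version 3.58.1, under R 4.3.3; eBayes, 2-sided), with Benjamini-Hochberg adjustment over all genes. The study's methods name Student's unpaired test, which was run as an alternative. The fit was tested on simulated data. Precision is limited by 3 arrays a group. Replicate arrays correlated at 0.993 to 0.997.

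The members and lists were chosen with earlier results of these data known. Values on every array were given for Hox genes that were called or above background and for those that passed the adjusted p alone, the others by range and count. From other lists up to 4 called genes with the largest change were named. Members that went the other way and some regulators as context were also named, chosen after their values were seen. Alternatives covered probe sets, scaling, thresholds, the ceiling, the prior and left-out arrays.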

Additional observations from a re-analysis of the deposited data

How the results depend on the processing

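The count of Hox genes called was 1 in neurospheres against nerve tissue and 1 in cultured cells against nerve tissue. It was 0 in both with the mean of a gene's probe sets, 0 in both without probe sets marked as shared, and 0 in both at a fold change over 2, and without a fold threshold it was 4 and 5. Leaving out 1 array gave 1 to 3 in neurospheres against nerve tissue, where Hoxd13 or Hoxa2 joined Hoxa5, and 1 to 1 in cultured cells against nerve tissue. After quantile normalization each comparison with nerve tissue still counted 1 gene, but it was Hoxd13 and not Hoxa5. Neurospheres against cultured cells gave 0 under all 19 alternatives. Not all of these could have differed: a fold change over 2 could only give 0, as could the adjusted t-test once the unadjusted one gave 0. Without the dimmest 40% of genes no Hox gene was left to test in the comparisons with nerve tissue, and 3 in the other. The number of Hox genes above background was 3 in neurospheres, 3 in cultured cells and 4 in nerve tissue. It was 6, 6 and 8 with the 90th percentile as ceiling and 0, 0 and 0 with the 99th. The cause of these shifts was not tested. The F test passed 6 genes and gave 5 to 6 under its alternatives.

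Same-numbered arrays did not deviate together in all comparisons (r of -0.19 to 0.21), so the numbers were not taken as pairs. With the replicate number as a block (replicate block) the calls were 1, 1 and 0, and the F test passed 5. Of all calls in neurospheres against nerve tissue 50.8% were higher, beside 45.4% after centring on the brighter genes and 55.0% after quantile normalization. In cultured cells against nerve tissue these shares were 48.0%, 43.2% and 53.8%. Near background the array compresses differences, so a change in a dim Hox gene may be larger than its value here.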

Other observations

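The 3 probe sets that named a pair of Hox genes were left out of the members. The one for Hoxb7 and Hoxb8 ranged between 2.99 and 3.32 (log2) over the 9 arrays. Those for Hoxd3 and Hoxd4 ranged between 5.42 and 5.95 and between 3.56 and 4.08.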
